A study of Mus musculus with 12 samples.

Results

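Skin injected with LL37, the active peptide of human cathelicidin, was compared with skin injected with vehicle across all genes. The comparison used 6 of the 12 libraries of the series, namely LL37 replicates 1 to 3 and control replicates 1 to 3, chosen by their labels. Both groups were wild-type BALB/c mice, and the study's methods describe females of 6 to 8 weeks for this strain. LL37 or control vehicle was injected into the shaved dermis of the back over 2 days, and whole skin at the injection site was frozen for RNA. Neither group received rapamycin, the mTORC1 inhibitor given to the mice of the remaining 6 libraries. The study describes both groups as given a vehicle in its place. The remaining 6 libraries entered only the filter, the scaling and the estimate of the spread. Repeated injection models an acute reaction to excess peptide, and whole skin mixes epidermis, dermis, fat, vessels, nerves and any muscle taken with it.

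Cathelicidin peptides are antimicrobial and also act on immune cells, keratinocytes and endothelium, and an excess of them is a known feature of rosacea, an inflammatory disease of facial skin with redness and dilated vessels. Injured or inflamed skin typically draws neutrophils first and monocytes later, while its keratinocytes switch from the keratins of normal differentiation to a stress program and divide more. Cells in such tissue often take up more glucose, and the dermal matrix is cut by proteases while provisional components such as tenascin C and hyaluronan are laid down. The lists of genes below follow these compartments: immune cells, epidermis, vessels, other cells of the dermis and fat, metabolism and matrix.

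The 6 libraries held between 15734559 and 20158083 counts on genes, and 17993 of 52636 listed genes passed the filter on low counts. Levels are given as CPM, counts scaled with TMM to the same total in each library, so that they compare libraries and not genes of different length. A floor of 3 counts corresponded to between 0.141 and 0.184 CPM in these libraries and covers counting error only. The tissue label held, with the basal keratin gene Krt5 at 4880, 6810 and 5060 CPM in control replicates 1 to 3 and at 7960, 8320 and 7830 CPM in LL37 replicates 1 to 3. Camp, the mouse cathelicidin gene, stood at 0.331 ± 0.295 CPM in control and 0.437 ± 0.393 CPM in LL37 skin (SD, n = 3) and was not called. LL37 replicate 3 stood apart from the other LL37 libraries. A shift of more than 2-fold separated it from replicates 1 and 2 in 13.1 and 13.4% of tested genes, whereas replicates 1 and 2 differed that much in 6.51% and pairs of control libraries in 5.77 to 6.7%. Counts without it are given beside the results or with the comparison of the LL37 libraries. Replicates were independent mice according to the study.

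A gene was called when edgeR's quasi-likelihood test gave a Benjamini-Hochberg adjusted p under 0.05 and the log2 fold change exceeded 1 in size. By this rule 1570 genes were higher and 1946 lower in LL37 skin, which is 8.73 and 10.8% of the genes tested. All LL37 libraries lay above all control libraries in 23.8% of tested genes and below them in 25.9%. These 4 percentages are the background against which each list is read. Outside muscle and mitochondrially encoded genes, the lists held 839 tested genes, of which 235 were called higher and 111 lower. The remaining 1335 higher and 1773 lower genes belonged to no list.

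**Figure D1:**
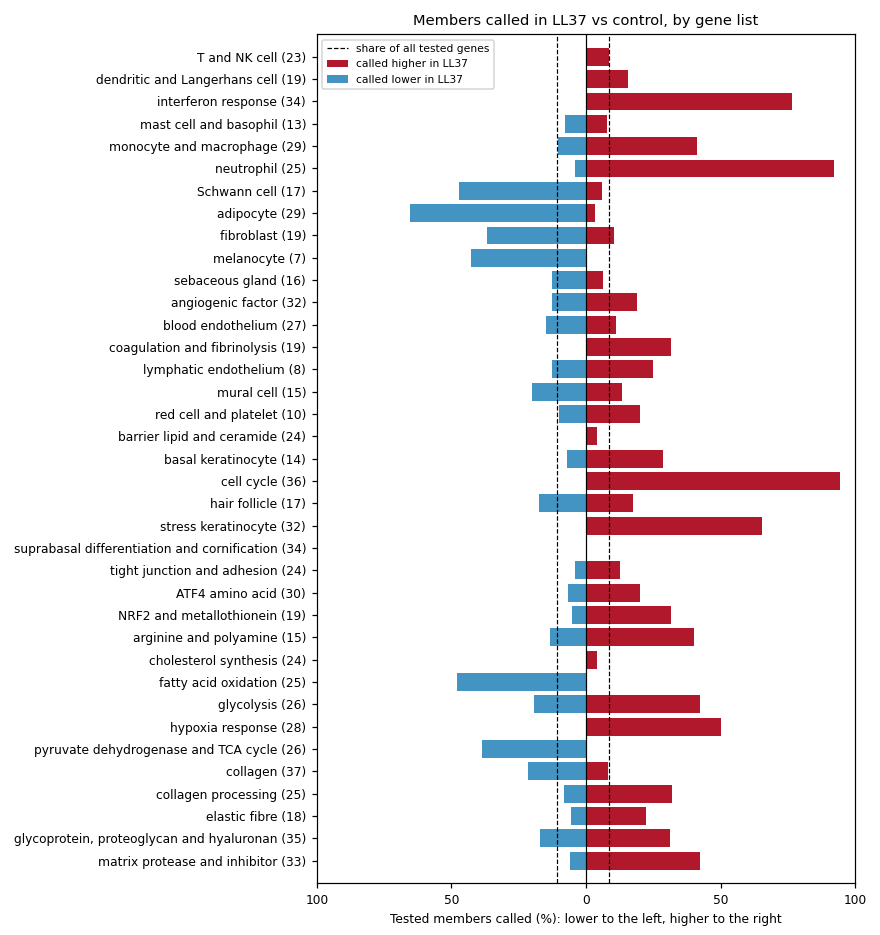
Bars give the percentage of tested members (number in brackets) of each list drawn that were called in LL37 skin against control skin. Bars for higher members run to the right and for lower members to the left, with 3 libraries a side. Dashed lines mark 8.73 and 10.8%, the shares of all tested genes called higher and lower. Of the lists drawn, cell cycle, neutrophil and interferon reach furthest to the right and adipocyte furthest to the left, and suprabasal differentiation has no bar. Muscle and mitochondrially encoded genes, with 96.5 and 69.2% of tested members called lower, are not drawn. The B and plasma cell and eosinophil lists are also left out.

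Among immune cells, genes of neutrophils moved furthest. Of 25 tested members of the neutrophil list, 23 were higher and 1 lower in LL37 skin, with a median log2 fold change of 4.47 over the tested members, against 0.00 over all genes. S100a9 (ENSMUSG00000056071, chr3:90692632-90695721) encodes a subunit of calprotectin that neutrophils carry in bulk, and stood at 4.09, 2.46 and 28.5 CPM in control replicates 1 to 3 and 767, 1100 and 91.9 CPM in LL37 replicates 1 to 3. Every LL37 library lay above every control library, with LL37 replicate 3 and control replicate 3 the nearest pair. The log2 fold change was 5.8 (SE 1.17, adjusted p = 0.00208, edgeR). Csf3r, the receptor for the granulocyte growth factor G-CSF, rose from 9.43, 3.64 and 12.3 CPM in control replicates 1 to 3 to 265, 351 and 61.8 CPM in LL37 replicates 1 to 3, again with replicate 3 lowest (log2 fold change 4.74, SE 0.71, adjusted p = 0.000351). Ncf4, a subunit of the phagocyte NADPH oxidase, had the smallest p of the list and stood at 17.7 ± 2.48 CPM in control and 81.8 ± 34.4 CPM in LL37 skin (SD, n = 3), a log2 fold change of 2.21. The single lower member was Mpo, a peroxidase transcribed in granulocyte precursors, at 5.49, 11.1 and 10.3 CPM in control and 2.61, 1.47 and 3.95 CPM in LL37 libraries. Most tested neutrophil genes therefore rose while Mpo fell. Camp, at the low level given above, was the tested member not called. Ly6g, Ngp and Elane had too few counts to be tested, at most 25, 28 and 6 in any library compared. Fewer cells of a type and less RNA per cell cannot be told apart in whole tissue, which holds for every list of cell markers here.

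Of 29 tested monocyte and macrophage genes, 12 were higher, against the background of 8.73%, and 3 lower, a share near the background of 10.8%, and without LL37 replicate 3 the counts were 11 and 3. Adgre1, which encodes the macrophage antigen F4/80, stood at 47.2, 27.5 and 37.1 CPM in control replicates 1 to 3 and 155, 86.5 and 83.6 CPM in LL37 replicates 1 to 3, without overlap (log2 fold change 1.54, SE 0.29, adjusted p = 0.0014). Msr1, a scavenger receptor, rose with a log2 fold change of 3.28, from 13.8, 3.53 and 9.32 CPM in the control libraries to 104, 107 and 48 CPM in the LL37 libraries. Arg1, the arginase of macrophages and also of keratinocytes, was even across LL37 libraries, at 115, 114 and 108 CPM against 23.1, 26.8 and 20.4 CPM in control libraries (log2 fold change 2.26). The 3 lower members were Retnla, Vsig4 and Lyz1. Retnla, a resistin-like protein made by alternatively activated macrophages and also by fat, fell from 83.4, 80.8 and 74.6 CPM in control replicates 1 to 3 to 0.761, 0.245 and 5.41 CPM in LL37 replicates 1 to 3 (log2 fold change -5.14, SE 0.89, adjusted p = 0.000876). Vsig4, a complement receptor of resident macrophages, had a log2 fold change of -2.13.

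Genes of dendritic cells and lymphocytes were close to the background. In the dendritic and Langerhans cell list 3 of 19 tested members were higher and 0 lower. They were Fscn1, an actin-bundling protein of mature dendritic cells and other motile cells, with Cd86 and Flt3. Fscn1 stood at 44.5, 27.6 and 34.8 CPM in control and at 109, 113 and 121 CPM in LL37 libraries, a log2 fold change of 1.68. Langerin, encoded by Cd207 and specific to Langerhans cells in epidermis, overlapped between groups at 12.5 ± 1.76 CPM in control and 11.7 ± 3.01 CPM in LL37 skin (adjusted p = 0.739, edgeR). In the T and NK cell list 2 of 23 tested genes were higher, Icos and Cd4, and 0 were lower, with 1 higher without control replicate 1 or 2 or LL37 replicate 1. Cd3e, a chain of the T cell receptor complex, stood at 1.67, 2.51 and 2.68 CPM in control and at 2.83, 3.8 and 2.96 CPM in LL37 libraries. Its groups did not overlap, but the difference did not pass the test (log2 fold change 0.48, adjusted p = 0.211, edgeR). Cd4, which is not confined to T cells, had a log2 fold change of 1.88. Icos stood at 0.323, 0.461 and 0.579 CPM in control and 2.45, 1.22 and 1.6 CPM in LL37 libraries, and its call was lost without control replicate 1 or LL37 replicate 1 (adjusted p = 0.0573 and 0.0615). Of 10 B and plasma cell genes 8 were not tested, Cd79a among them with at most 9 counts in any library. The 2 tested were not called with all libraries and were both lower without LL37 replicate 3.

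Mast cell and eosinophil lists moved by few genes. Cpa3, the carboxypeptidase of mast cell granules, ranged over 18.6, 5.53 and 8.74 CPM in control libraries and 10.8, 9.86 and 12.9 CPM in LL37 libraries, a difference within the control spread (adjusted p = 0.961, edgeR). Of 13 tested members of the mast cell and basophil list, Hdc was higher and Mrgprb2 lower, or 7.69% each way, shares near the background. Hdc encodes histidine decarboxylase, the enzyme that makes histamine and that neutrophils also use, and stood at 9.43, 4.66 and 16 CPM in control replicates 1 to 3 and 280, 264 and 17.8 CPM in LL37 replicates 1 to 3. LL37 replicates 1 and 2 were far above all controls, whereas replicate 3 lay just above control replicate 3. Mrgprb2, the receptor through which mast cells respond to cationic peptides, fell with a log2 fold change of -1.86, from 6.41, 8.19 and 7 to 1.14, 0.735 and 3.91 CPM. Only 3 of 8 eosinophil genes were tested. Siglecf did not pass (adjusted p = 0.369), Ear2 was called lower with a log2 fold change of -1.48, and Ccr3 was at or under the floor in all control libraries and at least 7.24-fold higher in LL37 skin. The call of Ear2 was lost without control replicate 1, LL37 replicate 1 or LL37 replicate 2 (adjusted p = 0.0814, 0.0634 and 0.0597).

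The interferon response rose broadly, with 26 of 34 tested members higher, 0 lower and a median log2 fold change of 1.78. Isg15, a ubiquitin-like protein induced by interferons, stood at 7.11, 4.61 and 21.9 CPM in control replicates 1 to 3 and 193, 56.3 and 55.9 CPM in LL37 replicates 1 to 3. LL37 replicate 1 was well above the other LL37 libraries, and control replicate 3 was the highest control (log2 fold change 3.18, SE 0.68, adjusted p = 0.00308). Oas2, a sensor of double-stranded RNA, rose with a log2 fold change of 2.34 (SE 0.41, adjusted p = 0.000858). With each library left out in turn, the number of members called higher ranged from 15, without LL37 replicate 1, to 30.

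**Figure D2:**
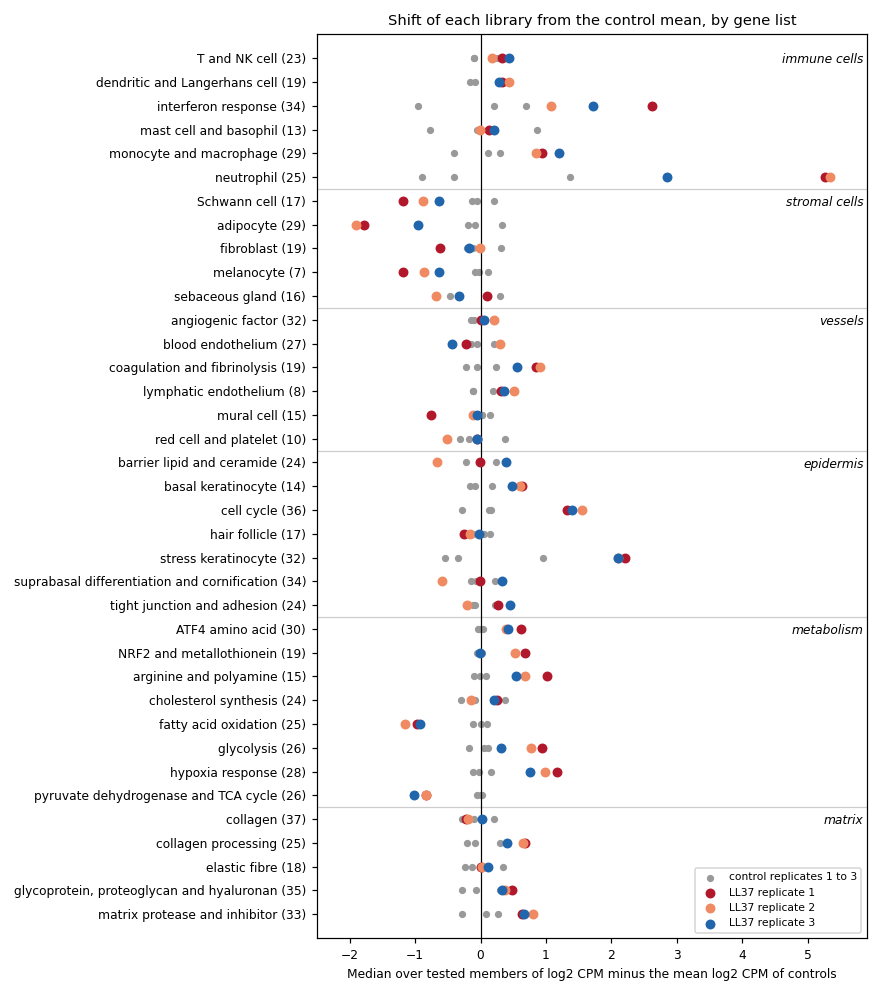
Each dot is the median over the tested members of a list (number in brackets) of log2 CPM in 1 library minus the mean of the control libraries, with grey for control and red, orange and blue for LL37 replicates 1, 2 and 3. In the neutrophil list LL37 replicate 3 sits at 2.85 and replicates 1 and 2 at 5.26 and 5.34, whereas the 3 LL37 dots lie close together for cell cycle and the TCA cycle.

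Among the cell cycle and epidermal lists, most cell cycle and stress keratinocyte genes were higher, whereas 0 of 34 cornification and 1 of 24 barrier lipid genes were called. The cell cycle list had 34 of 36 tested members higher and 0 lower, with a median log2 fold change of 1.44, and all 36 had LL37 libraries above every control library. Mki67 (ENSMUSG00000031004, chr7:135689784-135716361), the proliferation antigen Ki-67, stood at 25.3, 41.4 and 38.5 CPM in control replicates 1 to 3 and 101, 99.6 and 107 CPM in LL37 replicates 1 to 3. The LL37 libraries were close to each other, and replicate 3 was the highest (log2 fold change 1.55, SE 0.27, adjusted p = 0.000852). Rrm2, the ribonucleotide reductase subunit needed for DNA synthesis, had the smallest p of the list and rose from 13.9, 16.8 and 15.7 to 59.6, 65.1 and 48.9 CPM (log2 fold change 1.9). Division is not particular to keratinocytes, and which cells carried these transcripts cannot be told from whole skin.

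Stress keratinocyte genes were higher in 21 of 32 tested members and lower in 0, with a median log2 fold change of 2.0. Krt6a (ENSMUSG00000058354, chr15:101689910-101694307), a keratin of wounded and thickened epidermis, stood at 219, 254 and 673 CPM in control replicates 1 to 3 and 2070, 1300 and 1700 CPM in LL37 replicates 1 to 3. All LL37 libraries exceeded all control libraries, among which replicate 3 was high (log2 fold change 2.15, SE 0.42, adjusted p = 0.00182). Its partner Krt16 had a log2 fold change of 4.46 and its paralog Krt6b of 3.85. Krt6a and Krt6b are close paralogs, so that reads may be shared between them. Tgfa, a ligand of the EGF receptor, had the smallest p in the list and stood at 28 ± 2.53 CPM in control and 56.6 ± 9.95 CPM in LL37 skin (SD, n = 3, log2 fold change 1.01). Further EGF receptor ligands of the list were called, Epgn (1.7) and Areg (1.52), both as log2 fold changes. The cytokine Il24 of the IL-20 family was at or under the floor in every control library. It stood at 9.52, 0.979 and 10.5 CPM in LL37 replicates 1 to 3. The mean of these libraries was at least 44.5-fold higher, a bound that does not hold for LL37 replicate 2 alone. Leaving out each library in turn left 14 to 27 members called higher, and Tgfa fell under the limit on size without control replicate 1 or LL37 replicate 1, at 0.95 and 0.86.

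Suprabasal differentiation and cornification had 0 of 34 tested members called in either direction and a median log2 fold change of 0.00, although 6 had an adjusted p under 0.05, as did 42.6% of all tested genes. Krt10, the main keratin of suprabasal cells, ranged from 4060 to 10900 CPM over the LL37 libraries, on both sides of the control range, with 6490, 8440 and 6860 CPM in control and 6850, 4060 and 10900 CPM in LL37 replicates 1 to 3. Its difference of 0.0 on the log2 scale had an SE of 0.28 (adjusted p = 0.993, edgeR). Krt10 overlaps Gm11940 on the opposite strand. Lor, which encodes the cornified envelope protein loricrin, was 6830 ± 782 CPM in control and 4990 ± 857 CPM in LL37 skin (SD, n = 3), with a log2 fold change of -0.45 that passed the adjusted p but not the limit on size. Without LL37 replicate 3 the list had 0 higher and 3 lower members, and without LL37 replicate 2 it had 3 higher and 0 lower. In the barrier lipid and ceramide list 1 of 24 was higher and 0 lower. Abca12, the lipid transporter of lamellar granules, stood at 108, 149 and 127 CPM in control replicates 1 to 3 and 120, 47.6 and 220 CPM in LL37 replicates 1 to 3 (log2 fold change 0.01, adjusted p = 0.979). Replicate 2 was the lowest and replicate 3 the highest of all 6 libraries. The called member was Degs2, a ceramide desaturase that overlaps Evl, at 1.13, 0.973 and 3.58 CPM in control and 8.05, 4.04 and 7.53 CPM in LL37 libraries. The medians of both lists were spread over the LL37 libraries, at -0.01, -0.59 and 0.32 for cornification and -0.01, -0.67 and 0.39 for barrier lipids in replicates 1 to 3, so that these libraries did not share a direction.

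Basal keratinocyte genes had 4 of 14 members higher and 1 lower. Krt5 was higher by 0.53 on the log2 scale, under the limit on size (adjusted p = 0.0188, edgeR), and without overlap. Among the higher members, Itga6, an integrin chain that anchors basal cells, stood at 116, 152 and 137 CPM in control replicates 1 to 3 and 432, 382 and 246 CPM in LL37 replicates 1 to 3 (log2 fold change 1.39, SE 0.18, adjusted p = 0.000121). Replicate 3 was the lowest LL37 library, and the groups did not overlap. Krt15, a keratin of quiescent basal and hair bulge cells, fell from 2130, 2800 and 2080 CPM to 745, 1260 and 1360 CPM, a log2 fold change of -1.06 that came to -0.93 without control replicate 2 and -0.84 without LL37 replicate 1. Among hair follicle genes 3 of 17 tested were higher and 3 lower, or 17.6% each way against 8.73 and 10.8% of all tested genes. Tchh, the inner root sheath protein trichohyalin, rose by a log2 fold change of 1.27 at 5.49 ± 0.553 CPM in control and 13.3 ± 2.03 CPM in LL37 skin, and Krt71, of the same layer, was called at a low level of 0.7, 0.41 and 0.579 CPM in control and 1.03, 1.96 and 1.08 CPM in LL37 libraries. Lgr6, a receptor of follicle stem cells, fell to 19.8, 21.4 and 26.4 CPM from 56.6, 69.3 and 50.8 CPM (log2 fold change -1.38). The call of Krt71 was lost without control replicate 2 or 3 or LL37 replicate 2 (adjusted p = 0.112, 0.0775 and 0.122).

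Junction genes were called higher in 3 of 24 members, or 12.5%, near the 8.73% of all tested genes. They were lower in 1, or in 3 without LL37 replicate 3. The higher members were all connexins of gap junctions, Gja1, Gjb2 and Gjb6, with log2 fold changes of 1.37, 3.20 and 1.84. Gja1 stood at 138, 218 and 187 CPM in control and at 572, 459 and 373 CPM in LL37 libraries. Cldn1, the claudin of the epidermal tight junction, overlapped between groups at 152 ± 24 CPM in control and 162 ± 39.6 CPM in LL37 skin (adjusted p = 0.738), and Cldn8 had a log2 fold change of -1.04 at a low level, which came to -0.94, -0.84 and -0.93 without control replicate 3, LL37 replicate 1 and LL37 replicate 2. Sebaceous gland genes had 1 of 16 members higher and 2 lower, or 6.25 and 12.5%, shares near the background. Elovl3, a fatty acid elongase of the gland that overlaps Pitx3, was 218 ± 80.2 CPM in control and 178 ± 56.4 CPM in LL37 skin (adjusted p = 0.406). Gal, a neuropeptide, rose at a low level with a log2 fold change of 2.31, and Plin5, a lipid droplet protein that muscle also makes, fell from 13.1, 14.1 and 12.2 to 1.69, 2.33 and 0.847 CPM.

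**Figure D3:**
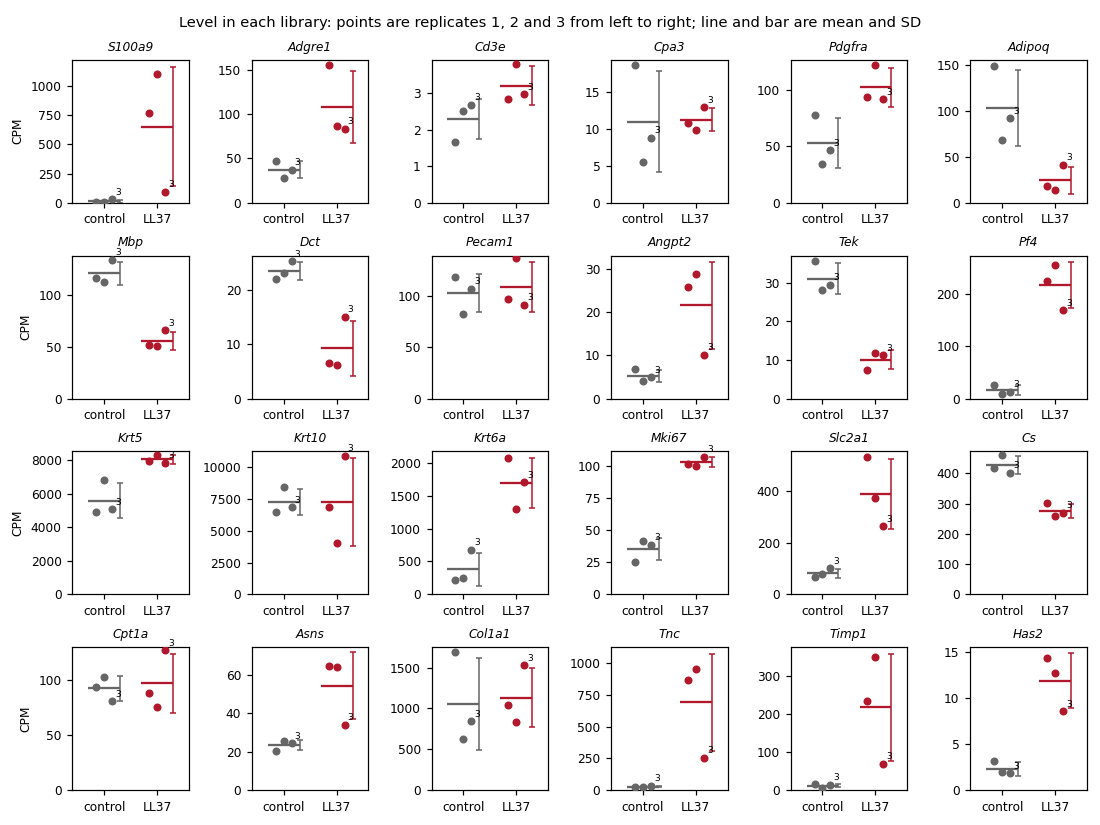
CPM of 24 genes in control (grey) and LL37 (red) skin, with points for replicates 1, 2 and 3 from left to right in each group, the digit 3 beside replicate 3, and a line and bar for mean and SD (n = 3). Each panel has its own linear axis from 0. Replicate 3 is the lowest LL37 point for S100a9, Tnc and Timp1 but not for Mki67 or Krt6a.

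Blood endothelium had 3 of 27 tested members higher, 4 lower and a median log2 fold change of -0.16, shares near the 8.73 and 10.8% of all tested genes. Pecam1, the pan-endothelial adhesion molecule CD31, stood at 119, 82.4 and 107 CPM in control replicates 1 to 3 and 97.5, 137 and 91.8 CPM in LL37 replicates 1 to 3, and the groups overlapped (log2 fold change 0.08, SE 0.2, adjusted p = 0.779, edgeR). The higher members were the leukocyte adhesion molecules Icam1, Vcam1 and Selp. Icam1, which is also made by keratinocytes and leukocytes, rose from 25, 17.2 and 23.6 CPM in control to 98.4, 109 and 37.1 CPM in LL37 libraries, with replicate 3 nearest the controls (log2 fold change 1.89). Sele, the endothelial selectin of early inflammation, did not pass at 4.58, 2.56 and 2.74 CPM in control and 5.33, 4.9 and 1.65 CPM in LL37 libraries (adjusted p = 0.704). The lower members were Tek, Ptprb, Vwf and Gpihbp1. Without control replicate 2, 1 member was called higher and 7 lower. Tek (ENSMUSG00000006386, chr4:94739289-94874976), the angiopoietin receptor TIE2, fell from 35.7, 28.1 and 29.6 CPM in control replicates 1 to 3 to 7.34, 11.7 and 11.2 CPM in LL37 replicates 1 to 3 (log2 fold change -1.63, SE 0.19, adjusted p = 5.81e-05). Angpt2, a ligand of TIE2 that activated endothelium releases, moved the other way at 6.89, 4.1 and 4.89 CPM in control and 26, 28.9 and 10.1 CPM in LL37 libraries (log2 fold change 2.03, SE 0.35, adjusted p = 0.000832). Angpt2 lies within Mcph1 on the opposite strand, and the library kit did not keep strand.

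Of 32 angiogenic factors and receptors, 6 were higher (18.8%) and 4 lower (12.5%), the second share near the background. Apln, the peptide ligand of the apelin receptor made by sprouting endothelium, had the smallest p and rose from 2.85, 1.79 and 1.89 CPM to 46.2, 41.9 and 22.3 CPM (log2 fold change 4.07, SE 0.35, adjusted p = 7.25e-06). Its receptor gene Aplnr rose too, with a log2 fold change of 1.51. Placental growth factor, encoded by Pgf, had a log2 fold change of 2.45. Vegfa, the main growth factor for vessels, was higher without overlap at 139, 109 and 126 CPM in control and 283, 231 and 194 CPM in LL37 libraries, yet stayed just under the limit on size (log2 fold change 0.92, adjusted p = 0.00364). It passed that limit without LL37 replicate 3, at 1.07, and without control replicate 1, at 1.01. Vegfb, a family member tied to fatty acid uptake in muscle and heart, fell from 62.8, 55.4 and 50.6 to 14.1, 16.5 and 20 CPM (log2 fold change -1.73).

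Lymphatic and mural lists gave small counts, 2 higher and 1 lower of 8, and 2 higher and 3 lower of 15. Lyve1, a hyaluronan receptor of lymphatic vessels and some macrophages, was 20.3 ± 4.35 CPM in control and 17.6 ± 3.85 CPM in LL37 skin (adjusted p = 0.64). Pdpn, a mucin-like protein of lymphatics that fibroblasts and keratinocytes also induce, rose from 48.6, 20 and 31.2 to 185, 188 and 74.5 CPM (log2 fold change 2.16). Stab2, a scavenger receptor of sinusoidal and lymphatic endothelium, fell by a log2 fold change of -2.32 at 2.14 ± 0.443 CPM in control and 0.415 ± 0.171 CPM in LL37 skin. Rgs5, a regulator of G protein signalling and the best known pericyte marker, had a log2 fold change of -0.62, under the limit on size (adjusted p = 0.00861). Abcc9, which encodes the sulfonylurea receptor of pericyte and muscle potassium channels, fell from 98.5, 58.2 and 77.3 CPM in control libraries to 3.48, 5.14 and 7.2 CPM in LL37 libraries (log2 fold change -3.88, SE 0.26, adjusted p = 1.46e-06). Skeletal muscle transcribes it too, and muscle RNA differed between the groups, as given below with the adipocyte genes. Steap4, a metalloreductase of mural cells and neutrophils, rose to 233, 263 and 68.9 CPM from 47.9, 34.4 and 42.1 CPM, with replicate 3 again nearest the controls.

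Genes of clotting and its control had 6 of 19 members higher, 0 lower and a median log2 fold change of 0.82. Tfpi2, an inhibitor of plasmin and of tissue factor, had the smallest p, at 0.808, 0.461 and 0.579 CPM in control replicates 1 to 3 and 4.19, 4.35 and 3.62 CPM in LL37 replicates 1 to 3 (log2 fold change 2.71, SE 0.42, adjusted p = 0.000417). It was even across the LL37 libraries. F3, tissue factor itself, was higher by 0.82 on the log2 scale without overlap and short of the limit on size (adjusted p = 0.0113). Without LL37 replicate 3, 9 members were called higher and F3 reached 1.04. In the red cell and platelet list of 10 tested genes, 2 were higher (20%) and 1 lower (10%), the second share near the background. Those higher were Pf4 and Ppbp, chemokines of platelet granules that myeloid cells can also make. Pf4 stood at 26.5, 9.47 and 13.2 CPM in control replicates 1 to 3 and 226, 256 and 169 CPM in LL37 replicates 1 to 3 (log2 fold change 3.73, SE 0.40, adjusted p = 3.82e-05), and Ppbp was higher by 5.97 on the log2 scale. The membrane glycoprotein Gp1bb, which overlaps Sept5, instead had a log2 fold change of -1.1, and the globin gene Hbb-bs stood at 42.8 ± 15.3 CPM in control and 34.4 ± 4.65 CPM in LL37 skin (adjusted p = 0.331). The call of Gp1bb was lost without control replicate 1 or 2 or LL37 replicate 1 or 2 (adjusted p = 0.0639 to 0.0813).

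Genes of fat were lower in LL37 skin. Of 29 tested adipocyte genes, 19 were lower and 1 higher, with a median log2 fold change of -1.49. Adipoq, the hormone adiponectin made almost solely by adipocytes, stood at 149, 68 and 91.9 CPM in control replicates 1 to 3 and 17.8, 13.9 and 41.3 CPM in LL37 replicates 1 to 3. The groups did not overlap, and replicate 3 was the LL37 library nearest the controls (log2 fold change -2.08, SE 0.41, adjusted p = 0.00189). Plin1, which coats the lipid droplet of adipocytes, fell alike, from 169, 60.1 and 85.3 CPM to 21, 13.1 and 36.8 CPM (log2 fold change -2.14). Slc2a4, the insulin-responsive glucose transporter of fat and skeletal muscle, had the smallest p, at 111, 86.1 and 105 CPM in control and 2.77, 5.57 and 7.39 CPM in LL37 libraries (log2 fold change -4.26). G0s2, an inhibitor of lipolysis that neutrophils and other cells also transcribe, was the member called higher, at 7.76, 4.92 and 6.21 CPM in control and 38.3, 42.9 and 8.8 CPM in LL37 libraries. It overlaps Lamb3. Skeletal muscle RNA moved with these genes. The muscle list took 6.65 ± 1.13% of counts in control and 0.0786 ± 0.0819% in LL37 libraries (SD, n = 3), ranging from 5.42 to 7.64% and from 0.0252 to 0.173%, and 55 of its 57 tested members were lower. LL37 replicate 3 had the highest share of the LL37 libraries. The part of muscle RNA in the adipocyte result was not tested.

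Of 19 fibroblast genes, 2 were higher, a share near the background, and 7 lower, with a median log2 fold change of -0.09, and 5 were higher and 7 lower without LL37 replicate 3. Without control replicate 1, 4 were higher. Pdgfra, the receptor that marks dermal fibroblasts, stood at 77.5, 34.4 and 46.3 CPM in control replicates 1 to 3 and 93.4, 122 and 91.4 CPM in LL37 replicates 1 to 3, without overlap. Its log2 fold change of 0.96 was just under the limit (adjusted p = 0.0219, edgeR), and it came to 1.34, 1.02 and 1.06 without control replicate 1, LL37 replicate 1 and LL37 replicate 3. Thy1, the fibroblast and T cell surface protein CD90, rose from 111, 81.4 and 89.9 to 315, 361 and 199 CPM (log2 fold change 1.63). The 7 lower members were Gsn, Pi16, Dpp4, Cd34, Dpt, Clec3b and Mfap5, and their log2 fold changes ranged from -1.08 for Cd34 to -2.94 for Clec3b. Pi16, Dpp4 and Clec3b are known as markers of a fibroblast population of the deep dermis and fascia. Gsn, the actin-severing protein gelsolin, fell from 3020, 2160 and 2140 CPM to 747, 658 and 1070 CPM (log2 fold change -1.56), and it overlaps Gm43128.

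Schwann cell and melanocyte genes were lower as well. Of 17 Schwann cell genes, 8 were lower and 1 higher, with a median log2 fold change of -0.96. Mbp, myelin basic protein, had the smallest p of the lower members, at 117, 113 and 134 CPM in control replicates 1 to 3 and 51.3, 50.8 and 65.9 CPM in LL37 replicates 1 to 3 (log2 fold change -1.11, SE 0.19, adjusted p = 0.000731). The groups did not overlap, and LL37 replicate 3 was nearest the controls. Prx, the myelin protein periaxin, had a log2 fold change of -1.74, whereas Sox10, the transcription factor of the lineage, was at -0.26 (adjusted p = 0.08, edgeR). Ngfr, the low-affinity neurotrophin receptor of immature and repair Schwann cells and of other cells, rose instead, from 9.32, 12.7 and 9.32 to 33.9, 50.3 and 29.9 CPM (log2 fold change 1.86). Of 7 tested melanocyte genes, Dct, Tyr and Pmel were lower and 0 higher. Dct, the pigment enzyme dopachrome tautomerase, fell from 22, 23.1 and 25.3 CPM to 6.63, 6.12 and 15.1 CPM (log2 fold change -1.33, SE 0.27, adjusted p = 0.00226). Pmel, at a log2 fold change of -1.0, was at the limit, at -0.88, -0.98 and -0.94 without control replicate 2, LL37 replicate 1 and LL37 replicate 3, and overlaps Cdk2 and Dgka. Without control replicate 2 or LL37 replicate 1, 1 melanocyte gene was called.

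Among metabolic lists, called members of the hypoxia response were all higher, and called members of the TCA cycle and fatty acid oxidation lists were all lower. The hypoxia response list had 14 of 28 members higher, 0 lower and a median log2 fold change of 0.96. Ndrg1, a stress gene induced by low oxygen, stood at 104, 92.9 and 115 CPM in control replicates 1 to 3 and 438, 346 and 305 CPM in LL37 replicates 1 to 3, without overlap (log2 fold change 1.80, SE 0.16, adjusted p = 9.94e-06). Car9 (ENSMUSG00000028463, chr4:43506966-43513729), a carbonic anhydrase at the cell surface that is among the strongest targets of hypoxia-inducible factor, was even across the LL37 libraries at 20.8, 20.3 and 18.9 CPM. Egln3, an oxygen-sensing prolyl hydroxylase, had a log2 fold change of 1.90. Hypoxia-inducible factor binds an ACGTG core. The promoters of Car9 and Egln3 are shown because they had the smallest p among called members with this core, which is in capitals on whichever strand it lies. Each sequence runs 5′ to 3′ on the strand of the gene, from 250 bases before to 50 after the start, as given by RefSeq for GRCm38.p6. Counted from the RefSeq start, the core began at base -18 in Car9 and at base -229 in Egln3. Gene positions in brackets come from GENCODE, whose starts can differ from those of RefSeq, as for Car9.
Car9, chr4:43506776-43507075, plus strand: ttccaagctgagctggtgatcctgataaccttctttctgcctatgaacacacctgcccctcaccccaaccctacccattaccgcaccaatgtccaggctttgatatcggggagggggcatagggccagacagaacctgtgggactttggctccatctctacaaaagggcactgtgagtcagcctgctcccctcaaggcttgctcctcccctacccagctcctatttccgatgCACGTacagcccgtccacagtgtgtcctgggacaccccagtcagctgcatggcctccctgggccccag
Egln3, chr12:54203825-54204124, minus strand: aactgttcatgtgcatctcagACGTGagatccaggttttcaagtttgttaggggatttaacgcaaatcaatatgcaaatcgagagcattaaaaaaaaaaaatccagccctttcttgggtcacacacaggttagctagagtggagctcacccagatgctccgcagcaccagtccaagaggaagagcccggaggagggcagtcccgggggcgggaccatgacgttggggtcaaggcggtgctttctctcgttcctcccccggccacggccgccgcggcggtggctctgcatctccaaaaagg
Of 11 members called higher that had a promoter in the RefSeq table, 9 held ACGTG on either strand, as did 8 of 12 members not called higher and 27.4% of 12459 tested genes with a promoter. The core was thus common in the list whether or not a member was called.

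Of 26 members of the glycolysis list, 11 were higher and 5 lower, with a median log2 fold change of 0.80. Slc2a1, the glucose transporter GLUT1, rose from 65.8, 77.1 and 100 CPM in control replicates 1 to 3 to 530, 373 and 263 CPM in LL37 replicates 1 to 3 (log2 fold change 2.26, SE 0.25, adjusted p = 4.27e-05), and overlaps Gm12867. Pfkp, the platelet-type phosphofructokinase, had the smallest p of the higher members at 155 ± 22 CPM in control and 365 ± 36 CPM in LL37 skin (log2 fold change 1.23). Pfkl, the liver type, was higher by 1.56 on the log2 scale, whereas Pfkm, the muscle type, fell from 1590, 1170 and 1280 CPM to 14.8, 17.9 and 36.4 CPM (log2 fold change -5.87). Enolase and phosphoglycerate mutase showed the same contrast, with Eno1 at 1.49 and Pgam1 at 1.53 against the muscle forms Eno3 at -6.00 and Pgam2 at -5.97, all log2 fold changes. Ldha, the lactate dehydrogenase chain favoured in anaerobic tissue, overlapped at 1260 ± 133 CPM in control and 1140 ± 157 CPM in LL37 skin (adjusted p = 0.481), and Ldhb was lower with a log2 fold change of -1.36. As a share of all counts the list fell from 1.49 ± 0.152% in control to 0.944 ± 0.114% in LL37 libraries (SD, n = 3), although more members were called higher. The difference in muscle RNA given above moved with the lower isoforms, and its part in this share was not tested.

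**Figure D4:**
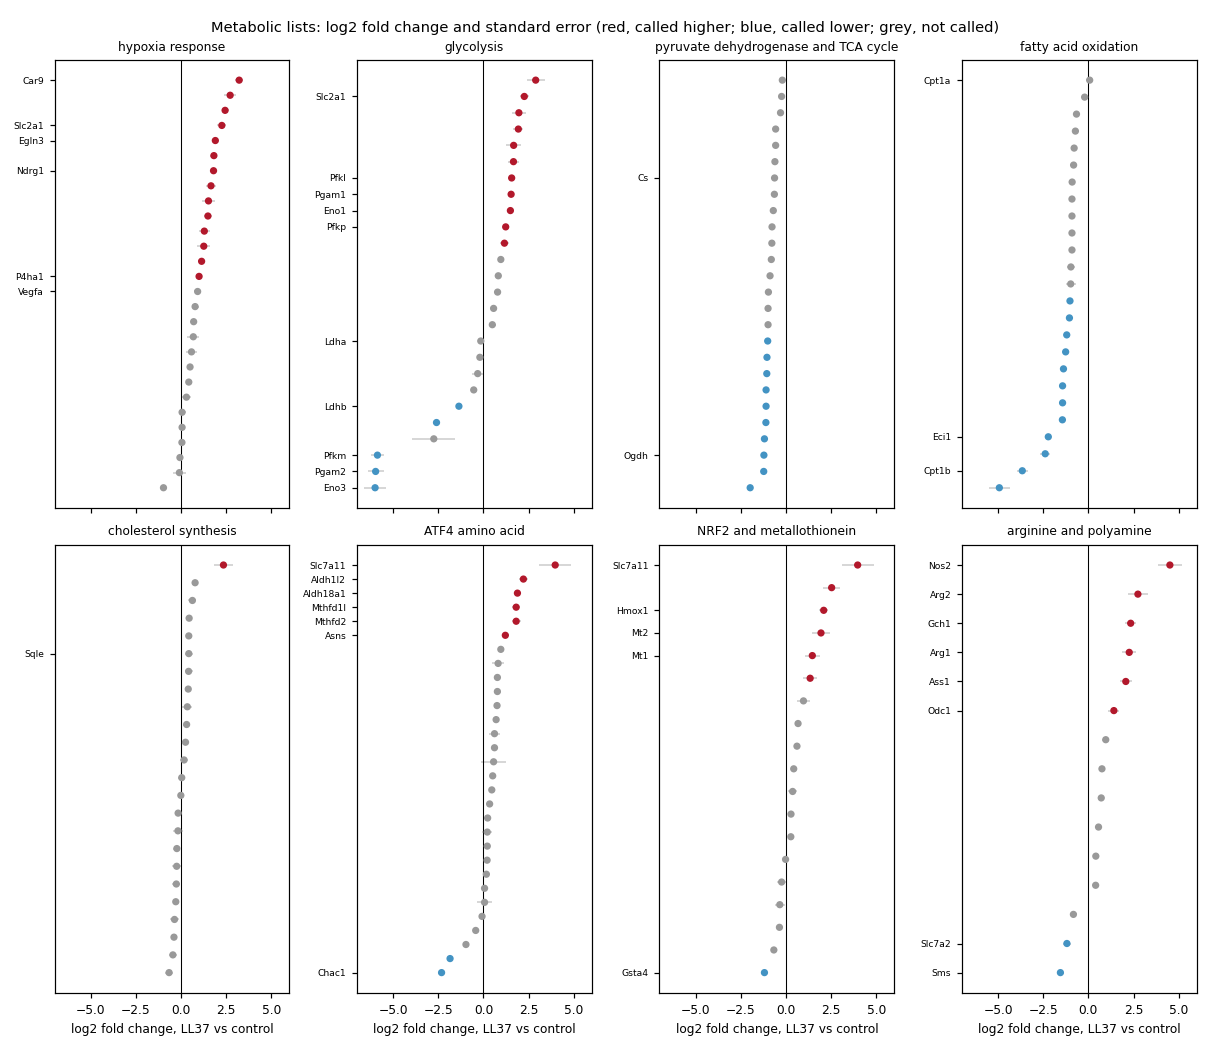
Log2 fold change of LL37 against control skin for every tested member of 8 metabolic lists, with horizontal lines for the standard error. Symbols are given for members that the text names. Red points were called higher, blue lower and grey not called. Points of the TCA cycle and fatty acid lists lie left of 0 except Cpt1a at 0.07, glycolysis has both directions, and most cholesterol synthesis genes lie within 1 of 0.

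The list of pyruvate dehydrogenase and the TCA cycle had 10 of 26 members lower, 0 higher and a median log2 fold change of -0.93, and in all 26 every LL37 library lay below every control library. Cs, citrate synthase, which starts the cycle, stood at 418, 462 and 402 CPM in control replicates 1 to 3 and 302, 258 and 269 CPM in LL37 replicates 1 to 3. Its log2 fold change of -0.63 passed the adjusted p (0.000489, edgeR) but not the limit on size. Ogdh, a subunit of the 2-oxoglutarate dehydrogenase complex, fell from 446, 433 and 381 CPM to 194, 166 and 182 CPM (log2 fold change -1.22, SE 0.09, adjusted p = 3.36e-06). In each LL37 library the median shift of the list from the control mean was similar, -0.83, -0.84 and -1.02 in replicates 1 to 3. Fatty acid oxidation had 12 of 25 members lower and 0 higher, with a median of -0.98. Eci1 (ENSMUSG00000024132, chr17:24426641-24439348), an isomerase needed to oxidize unsaturated fatty acids, had the smallest p, at 97.2, 99 and 82.4 CPM in control and 16.6, 22.2 and 20.8 CPM in LL37 libraries (log2 fold change -2.22, SE 0.12). Cpt1a, the carnitine transferase of most tissues other than muscle, overlapped at 92.7 ± 11.4 CPM in control and 97 ± 26.8 CPM in LL37 skin (adjusted p = 0.809), whereas Cpt1b, the muscle form, had a log2 fold change of -3.66. Genes encoded by the mitochondrial genome took 2.51 ± 0.062% of counts in control and 1.26 ± 0.049% in LL37 libraries (SD, n = 3), with 9 of 13 called lower. Muscle is rich in mitochondria, and the part of its RNA in the TCA, fatty acid and mitochondrial results was not tested.

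Cholesterol synthesis stayed near the background, with 1 of 24 members higher and 0 lower. The members not called had log2 fold changes between -0.66 and 0.78. Sqle, squalene epoxidase, was at 0.43 (SE 0.21, adjusted p = 0.117, edgeR).

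Amino acid genes governed by the stress factor ATF4 were higher in 6 of 30 members and lower in 2. Asns, asparagine synthetase, stood at 20.5, 25.4 and 24.4 CPM in control replicates 1 to 3 and 64.5, 64 and 34 CPM in LL37 replicates 1 to 3 (log2 fold change 1.21, SE 0.21, adjusted p = 0.000813). LL37 replicates 1 and 2 were alike, and replicate 3 was nearer the controls. Aldh18a1, the first enzyme of proline synthesis, had the smallest p and rose from 19.8, 19.2 and 18.7 CPM to 92.9, 70.5 and 49.4 CPM (log2 fold change 1.88), and it overlaps Gm15801. The mitochondrial folate genes Mthfd2, Mthfd1l and Aldh1l2 had log2 fold changes of 1.81, 1.81 and 2.21. Chac1, an enzyme that degrades glutathione and a classical ATF4 target, went the other way, from 39.9, 30.7 and 31.2 CPM to 6.63, 5.2 and 8.47 CPM (log2 fold change -2.32, SE 0.21, adjusted p = 1.31e-05). ATF4 with its C/EBP partners binds TGATGNAA, where N is any base. The called members with this motif in their promoter were Asns and Slc7a11, the cystine transporter, shown with the motif in capitals on either strand. It began at base -23 in Asns and at bases -66 and -47 in Slc7a11, at the last of these on the opposite strand.
Asns, chr6:7693160-7693459, minus strand: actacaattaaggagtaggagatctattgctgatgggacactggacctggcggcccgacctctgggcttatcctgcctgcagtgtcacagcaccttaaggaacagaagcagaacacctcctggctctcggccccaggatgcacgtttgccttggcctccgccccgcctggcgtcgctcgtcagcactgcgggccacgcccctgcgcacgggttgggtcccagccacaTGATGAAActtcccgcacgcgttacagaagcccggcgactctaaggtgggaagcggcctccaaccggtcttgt
Slc7a11, chr3:50443564-50443863, minus strand: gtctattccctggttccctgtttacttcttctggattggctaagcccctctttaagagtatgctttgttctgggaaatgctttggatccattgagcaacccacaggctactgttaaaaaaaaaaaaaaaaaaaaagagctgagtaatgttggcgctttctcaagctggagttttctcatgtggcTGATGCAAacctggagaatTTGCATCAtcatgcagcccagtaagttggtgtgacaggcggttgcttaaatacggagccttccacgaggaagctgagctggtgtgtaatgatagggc
The motif was in 2 of 5 promoters of members called higher, in 7 of 21 of the others and in 2.90% of tested genes with a promoter.

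Genes of oxidative and metal stress were higher in 6 of 19 members and lower in 1. Among lists with at least 3 called members, LL37 replicate 3 moved least here relative to replicates 1 and 2 (median ratio of shifts 0.173). Hmox1, the heme-degrading enzyme heme oxygenase 1, had the smallest p and rose from 70.3, 58.4 and 53.9 CPM to 288, 324 and 165 CPM (log2 fold change 2.09, SE 0.25, adjusted p = 6.97e-05). Mt2, a metallothionein that binds zinc and copper, stood at 24.2, 16.7 and 20.6 CPM in control replicates 1 to 3 and 83.2, 130 and 23.1 CPM in LL37 replicates 1 to 3 (log2 fold change 1.94, SE 0.51, adjusted p = 0.00952). LL37 replicate 3 lay within the control range, so that the groups overlapped and the call rested on replicates 1 and 2. Over the 6 called members, the median shift from the control mean was 2.14, 2.55 and 0.56 on the log2 scale in LL37 replicates 1 to 3. Gsta4, a glutathione transferase that detoxifies lipid aldehydes, was evenly lower at 5.76, 5.08 and 5.98 CPM against 12.1, 13.6 and 12.8 CPM in control libraries. Metallothionein genes carry metal response elements with the core TGCGCNC, which is in capitals in the promoters of Mt2 and Mt1 on either strand. It began at bases -128 and 5 in Mt2 and at base 21 in Mt1. Mt2 overlaps Gm45774.
Mt2, chr8:94172368-94172667, plus strand: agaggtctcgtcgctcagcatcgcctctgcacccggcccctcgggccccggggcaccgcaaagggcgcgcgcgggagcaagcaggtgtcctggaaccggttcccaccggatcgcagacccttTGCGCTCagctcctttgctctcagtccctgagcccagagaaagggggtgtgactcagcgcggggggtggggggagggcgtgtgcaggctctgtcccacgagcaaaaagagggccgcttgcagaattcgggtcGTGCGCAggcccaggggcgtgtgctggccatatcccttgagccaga
Mt1, chr8:94178839-94179138, plus strand: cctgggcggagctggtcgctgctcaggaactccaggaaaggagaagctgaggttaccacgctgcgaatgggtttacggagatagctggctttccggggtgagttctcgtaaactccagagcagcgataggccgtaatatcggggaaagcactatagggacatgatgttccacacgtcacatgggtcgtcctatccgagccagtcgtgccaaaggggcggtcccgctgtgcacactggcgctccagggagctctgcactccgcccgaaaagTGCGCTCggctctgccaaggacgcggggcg
This core was in 2 of 4 promoters of members called higher, in 4 of 10 of the others and in 27.9% of tested genes with a promoter. These shares cover the whole list, which also holds genes other than metallothioneins.

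Genes of arginine and polyamine metabolism were higher in 6 of 15 members, Gch1, Nos2, Ass1, Arg1, Arg2 and Odc1, and lower in 2. Odc1, the enzyme that makes putrescine, the first polyamine, stood at 73.8, 51.4 and 74.5 CPM in control and 201, 244 and 86.4 CPM in LL37 libraries, with replicate 3 just above the controls (log2 fold change 1.41, SE 0.31, adjusted p = 0.00329). Gch1, which makes the cofactor of nitric oxide synthase, rose from 6.84, 4.97 and 6.84 to 46, 28.4 and 20.3 CPM (log2 fold change 2.34). Sms, which makes spermine, the last polyamine, fell from 36.4, 27.2 and 33.2 to 10.4, 11.4 and 11.3 CPM (log2 fold change -1.55), evenly in all LL37 libraries. The other lower member was Slc7a2, an arginine transporter, at -1.19.

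In the matrix, the protease and glycoprotein lists had more members higher than lower, and the collagen list more lower than higher. Of 37 tested collagen genes, 3 were higher, a share near the background, and 8 lower, with a median log2 fold change of -0.11. Without control replicate 1 the higher count was 5. Col1a1, the main collagen of dermis, stood at 1690, 631 and 842 CPM in control replicates 1 to 3 and 1040, 830 and 1530 CPM in LL37 replicates 1 to 3, and Col3a1 at 1180 ± 517 CPM in control and 1630 ± 232 CPM in LL37 skin (adjusted p = 0.824 and 0.188, edgeR). Control replicate 1 was the highest and control replicate 2 the lowest of the 6 libraries for Col1a1. Col12a1, a collagen on the surface of fibrils in strained or healing tissue, rose from 37.7, 27.9 and 33.2 to 128, 119 and 105 CPM (log2 fold change 1.84). Col22a1, of the junction between muscle and tendon, was at or under the floor in all LL37 libraries, at 2.53, 1.64 and 1.11 CPM in control libraries, and so at least 10.8-fold lower. Among the other lower members, Col4a3, Col4a4 and Col4a6 encode chains of basement membranes, with log2 fold changes of -1.76, -2.22 and -1.06. Col7a1, of the anchoring fibrils under the epidermis, was at -1.01.

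Collagen processing enzymes were higher in 8 of 25 members and lower in 2. Plod2, a lysyl hydroxylase that sets the type of crosslink, stood at 6.09, 2.97 and 4.84 CPM in control replicates 1 to 3 and 14.7, 13.4 and 12.9 CPM in LL37 replicates 1 to 3, without overlap (log2 fold change 1.56, SE 0.25, adjusted p = 0.000549). P4ha1, a subunit of prolyl hydroxylase, had the smallest p and a log2 fold change of 1.0 that was at the limit, at 55.6 ± 4.27 CPM in control and 111 ± 10.8 CPM in LL37 skin, and that came to 0.99, 0.93 and 0.92 without control replicate 1, control replicate 2 and LL37 replicate 1. Of the list, 1 member was called higher without control replicate 2, 4 without control replicate 3, 5 without LL37 replicate 1 or 2 and 8 without either of the other libraries. Pcolce2, an enhancer of procollagen cleavage, fell from 48.7, 38.8 and 36.6 to 10.8, 10.7 and 15.8 CPM (log2 fold change -1.73).

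Matrix proteases and inhibitors were higher in 14 of 33 members and lower in 2, or in 4 without LL37 replicate 3. Mmp3, the protease stromelysin 1, stood at 25, 15.2 and 30.5 CPM in control replicates 1 to 3 and 187, 331 and 92.6 CPM in LL37 replicates 1 to 3 (log2 fold change 3.11, SE 0.45, adjusted p = 0.000275). Mmp10, a related enzyme of migrating keratinocytes, had the smallest p and was highest in LL37 replicate 3, at 3.32, 4.22 and 6.21 CPM in LL37 and 0.108, 0.205 and 0.474 CPM in control libraries (log2 fold change 4.1). The inhibitor Timp1 rose with the proteases, from 15.1, 6.15 and 14.1 to 234, 349 and 69.7 CPM (log2 fold change 4.21, SE 0.53, adjusted p = 0.000112), and overlaps Syn1. Timp3, an inhibitor bound to matrix that overlaps Syn3, fell from 177, 167 and 174 to 75.4, 55.5 and 92.2 CPM (log2 fold change -1.21), and Timp4 was the other lower member at -3.14. Timp1 thus moved against Timp3 and Timp4.

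Glycoproteins, proteoglycans and hyaluronan genes were higher in 11 of 35 members and lower in 6. Tnc (ENSMUSG00000028364, chr4:63959785-64047015), the wound matrix protein tenascin C, had the smallest p, at 27.7, 20.8 and 32.7 CPM in control replicates 1 to 3 and 868, 956 and 256 CPM in LL37 replicates 1 to 3 (log2 fold change 4.68, SE 0.48, adjusted p = 2.66e-05). The groups were far apart, and replicate 3 was well below the other LL37 libraries. Has2, a hyaluronan synthase, rose from 3.18, 1.95 and 1.84 to 14.4, 12.7 and 8.56 CPM (log2 fold change 2.35, with Has2os on the other strand), and Has1 and Has3 were called too, at 1.81 and 4.54. Cemip, which breaks hyaluronan down, was at 2.16. Sparcl1, a matricellular protein of resting vessels and stroma, fell from 181, 151 and 170 to 44.3, 65.8 and 85.5 CPM (log2 fold change -1.36). The small proteoglycan genes Omd and Ogn were lower with log2 fold changes of -3.35 and -2.85. Elastic fibre genes had 4 of 18 higher and 1 lower, and 4 were lower without LL37 replicate 3. Eln, elastin, had a log2 fold change of -0.42 without overlap, at 186, 133 and 161 CPM in control and 119, 123 and 117 CPM in LL37 libraries, which did not reach the limit on size (adjusted p = 0.0349). Efemp2, fibulin 4, which assembles elastic fibres and overlaps Mus81, rose by a log2 fold change of 1.75, and Mfap5, a microfibril protein, fell from 69.6, 38.7 and 45.8 to 15.2, 13 and 26.5 CPM.

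Outside the lists, the called genes with the largest changes that averaged at least 5 CPM in the higher group were as follows. Tdgf1, a co-receptor of the TGF-beta family better known from embryos, was at or under the floor in the control libraries. It stood at 33.3, 24.9 and 0.753 CPM in LL37 replicates 1 to 3, with a mean at least 125-fold higher. Fgf23, the hormone of phosphate balance, showed the same pattern at 22.6, 15.3 and 1.04 CPM, with a mean at least 82.3-fold higher. Both genes were far lower in replicate 3, for which alone these bounds do not hold. Sprr2a2, a small proline-rich cornified envelope gene that overlaps its paralog Sprr2a1, was at least 90.9-fold higher at 20.9, 11.7 and 10.4 CPM. The neutrophil chemokine gene Cxcl5 and Mirt2 completed the higher set, with log2 fold changes of 8.27 and 6.82. The Mirt2 entry counted is annotated as a short miscellaneous RNA and overlaps another gene of that name on the same strand. The lower set was made of Asb18, Kcnc1, Aqp4, Mstn and Mylk4. Aqp4, a water channel of fast muscle fibres, was at or under the floor in LL37 libraries and at 24.8, 26.1 and 21.9 CPM in control libraries, at least 149-fold lower, and Asb18 was at least 35-fold lower. Mstn, the muscle growth inhibitor myostatin, fell from 44.5, 31.3 and 73 to 0, 0 and 0.329 CPM. Kcnc1, a potassium channel gene, had a log2 fold change of -9.27 and Mylk4, a kinase of striated muscle, of -8.54. Skeletal muscle transcribes Aqp4, Mstn and Mylk4, and the part of the difference in muscle RNA was not tested.

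The LL37 libraries did not respond evenly. Among the 1570 genes called higher, the median shift from the control mean was 1.84, 1.75 and 1.28 on the log2 scale in LL37 replicates 1 to 3, and among the 1946 called lower it was -2.01, -1.97 and -1.41. The median SD of log2 CPM over tested genes was 0.247 in LL37 and 0.186 in control libraries. When LL37 replicate 3 was left out, 1935 of 18396 tested genes were called higher and 2352 lower, which is 10.5 and 12.8%. Of the genes called without replicate 3 that the full fit also tested, 96.1% of 1851 higher and 95% of 2319 lower genes had the same sign in replicate 3, and 56.5 and 57.6% of them differed at least 2-fold from the control mean there. The same shares for replicates 1 and 2, each left out in turn, were 98.6 to 99.7% for the sign and 85.2 to 92.4% for a 2-fold difference. These comparisons share their control libraries, but their gene sets differ. Replicates 1 and 2 were judged on 1322 to 1673 genes, all called with replicate 3 in the fit, so the shares are not strictly alike. Without replicate 3, the numbers of members called higher were 25 for neutrophil, 27 for interferon, 22 for stress keratinocyte, 35 for cell cycle, 16 for hypoxia and 15 for matrix protease genes, and those called lower were 19 for adipocyte, 9 for Schwann cell, 7 for TCA cycle, 14 for fatty acid oxidation and 10 for collagen genes. The numbers higher and lower were 3 and 6 for blood endothelium, 7 and 4 for angiogenic factors, 4 and 2 for basal keratinocyte, 4 and 4 for hair follicle, 12 and 5 for glycolysis, 7 and 3 for ATF4, 7 and 1 for oxidative and metal stress, 7 and 2 for arginine and polyamine, and 13 and 8 for glycoprotein genes. Dendritic cell genes had 4 higher and hypoxia genes 1 lower. In the T and NK cell, mast cell, eosinophil, sebaceous, melanocyte, lymphatic, mural, red cell and platelet, barrier lipid, cholesterol, collagen processing and muscle lists the counts were the same as with all libraries.

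**Figure D5:**
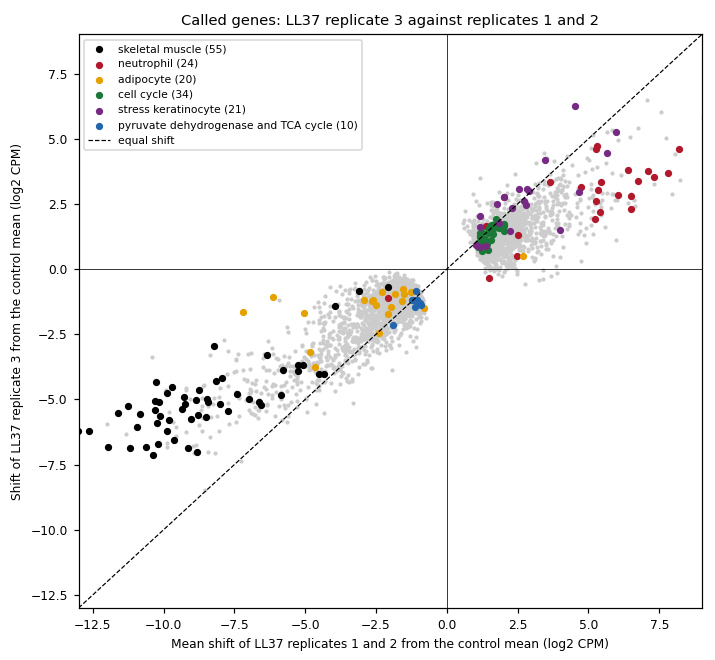
Each point is a called gene, with the mean shift of LL37 replicates 1 and 2 from the control mean in log2 CPM on the horizontal axis and the shift of replicate 3 on the vertical axis. The dashed line marks equal shifts, and colours mark the called members of 6 lists. Muscle, neutrophil and adipocyte genes lie nearer to 0 in replicate 3 than the line, whereas cell cycle, stress keratinocyte and TCA genes lie along it.

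Replicate 3 was not weaker for every list. The ratio of its shift to the mean shift of replicates 1 and 2 had a median of 0.697 over genes called higher and 0.716 over genes called lower. Over called members of the lists, it was 0.519 for neutrophil, 0.545 for adipocyte, 0.495 for Schwann cell, 0.547 for clotting and 0.173 for oxidative and metal stress genes. It was 0.942 for cell cycle, 0.961 for stress keratinocyte, 0.927 for collagen processing and 1.13 for TCA cycle genes. Cell cycle genes were at 1.35, 1.57 and 1.41 in replicates 1 to 3 and called stress keratinocyte genes at 2.51, 2.62 and 2.49. These ratios describe genes called with replicate 3 included, and no test of the difference between lists was made. The other LL37 libraries stood out in fewer lists. Replicate 1 was highest for the interferon response, with called members at 3.03 against 1.27 and 2.01 in replicates 2 and 3, and replicate 2 was lowest for cornification and barrier lipids. Among controls, replicate 3 was highest for the neutrophil, interferon and stress keratinocyte lists, at 1.36, 0.70 and 0.96 above the control mean.

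LL37 replicate 3 was the LL37 library farthest from the others over all tested genes. Called genes were ranked by the gap between it and the mean of LL37 replicates 1 and 2. The odd library was thus fixed as replicate 3, and genes in which replicate 1 or 2 stood apart were not looked for. The 5 higher genes with the largest gap were Tdgf1, Mrgpra2b, Acod1, Il6 and a gene without a symbol (ENSMUSG00000084956). Acod1, which makes the antimicrobial metabolite itaconate in myeloid cells, stood at 0.646, 0 and 7.79 CPM in control replicates 1 to 3 and 317, 204 and 8.8 CPM in LL37 replicates 1 to 3. Il6, the cytokine interleukin 6, stood at 40.5, 22.1 and 1.51 CPM in LL37 libraries and at 0.323, 0.102 and 0.211 CPM in control libraries. Mrgpra2b, a receptor of the MRGPR family, overlapped with the controls in replicate 3. The 5 lower genes with the largest gap were the muscle genes Myh4, Myh1, Myh2 and Acta1, and Cyp2e1, a cytochrome P450 of liver and fat. Cyp2e1 stood at 422, 161 and 327 CPM in control and 0.163, 0.0612 and 27.2 CPM in LL37 libraries. These genes were chosen for their gap, so their values are a description and no test.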

How the data were processed

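RNA was sequenced from whole skin with a kit that does not mark strand, and the authors deposited raw counts per gene for 12 libraries, without normalization or pooling. The submitters' processing notes name HISAT2 2.0.5, StringTie 1.3.3b, featureCounts 1.5.0-p3 and DESeq2 1.16.1 with build mm10, whereas the paper's methods name HTSeq for counting, and which tool made the deposited counts was not settled. Positions and names come from GENCODE M21 on GRCm38, which gave a symbol to 52403 of 52636 genes, and overlapping genes are named because unstranded counts cannot separate them.

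In R 4.3.3, edgeR 4.0.16 fitted the 12 libraries in a common model (TMM scaling, filterByExpr by group, quasi-likelihood F-test), and LL37 was contrasted with control. A call needed a Benjamini-Hochberg adjusted p under 0.05 over the 17993 tested genes and a log2 fold change beyond 1 in size. The standard error is the log2 fold change divided by the root of the F statistic. Shifts per library use log2 CPM with a prior count of 2. Depth was 15734559 to 20158083 counts in the 6 libraries compared. A group with at most 3 counts in every library was treated as at the floor, set at 3 counts per library. Folds against it are lower bounds for the mean of the other group, not for each of its libraries.

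The gene lists, skeletal muscle and mitochondrially encoded genes apart, held 896 genes. The members and lists were chosen with earlier results of these data known, so their direction is no independent evidence. Named genes are the anchors of each list and the called member with the smallest p in each direction. Also named are the 5 called genes per direction outside the lists with the largest change. A last set holds the 5 called genes per direction with the largest gap between LL37 replicate 3 and the mean of the other LL37 libraries. Other genes were named after their values were seen. Some genes that the rule names are not reported here. Promoters are RefSeq windows of 300 bases.

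Alternatives were other scalings (DESeq2 size factors, library size only, muscle removed), other filters (at least 1 count in total, at least 10 in every library), no fold limit, DESeq2 1.42.0, limma 3.58.1 voom with quality weights, the 6 libraries alone, a block for the replicate number, and omission of each library in turn. The fits were tested on simulated counts.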

Additional observations from a re-analysis of the deposited data

How the results depend on the processing

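Without the limit on fold change, 3779 genes were higher and 3891 lower in LL37 skin, and a filter of at least 10 counts in every library, which tests fewer genes, left 1213 lower. Under the other settings both counts stayed within 1.5 times those reported. Leaving out each library gave 1340 to 1935 higher and 1666 to 2352 lower genes, the most without LL37 replicate 3. Same-numbered control and LL37 libraries did not deviate together (correlations of -0.06, -0.01 and -0.02), so no pairing by number was visible. The labels do not say what the numbers mean, and these correlations cannot tell how the mice were handled. The fit with the replicate number as a block called 1536 higher and 1944 lower. Library size alone shifted the median of all genes by 0.08 and removing muscle by 0.02 on the log2 scale. Of 129 named genes, 10 changed the sign of a log2 fold change that was not called, over 27 settings and genes, and 10 called genes lost their call under some setting. The cause was not tested. Krt10 was at -0.13 with limma, -0.01 with the 6 libraries alone, -0.04 with the replicate block and between -0.38 and 0.33 with each library left out. Abca12 was at -0.26 with limma, -0.07 with the replicate block and between -0.58 and 0.44 with each library left out. Pecam1 was at -0.02 with limma and between -0.09 and 0.21 with each library left out. With libraries left out, the log2 fold changes ranged from -0.18 to 0.10 for Cd207, -0.30 to 0.65 for Cpa3, -0.03 to 0.67 for Sele, -0.49 to 0.02 for Hbb-bs, -0.03 to 0.31 for Cldn1, -0.15 to 0.25 for Cpt1a and -0.18 to 0.62 for Col1a1. Depth limited the B cell and eosinophil lists, most of whose members were not tested.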

Other observations

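Gapdh, often used as a reference gene, stood at 10.2, 243 and 257 CPM in control replicates 1 to 3 and at 27.6, 30 and 18.4 CPM in LL37 replicates 1 to 3. Control replicate 1 was below every LL37 library and the other controls were far above them, and the gene was not called (log2 fold change -2.75, SE 1.20, adjusted p = 0.0868, edgeR). Gapdh has many near-identical processed pseudogenes, so its count is uncertain where reads map to several places. It was chosen after its values were seen.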
